A study of Homo sapiens with 8 samples.

Results

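OPM-2 cells grown for 72 h with all-trans retinoic acid (ATRA) alone were compared with cells grown with the solvent DMSO, by chromatin immunoprecipitation with sequencing (ChIP-seq). The members are the peaks of these 2 lists on chromosomes 1 to 22 and X: 36742 from the library labelled ATRA and 50946 from DMSO, together 87688 of the 189160 peaks in the 4 lists of the series. A peak counted as shared when it overlapped a peak of the other list by at least 1 bp. The groups were DMSO, 1 µM ATRA, 1 µM pomalidomide (POM) and 1 µM ATRA with 1 µM POM, each for 72 h, and every treatment had 1 ChIP and 1 input sample. OPM-2 is an established human multiple myeloma line, here 1 line without a second one beside it, and carries the t(4;14) translocation, which the title of the series also names. The design text speaks of binding of transcription factors but the labels name no antibody, so which protein a peak stands for is not given in the sources used here. There were no replicates, so no difference could be set against a spread between cultures, and every interval below covers counting error only.

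ATRA is the natural ligand of the retinoic acid receptors RARA, RARB and RARG, which bind DNA as partners of the retinoid X receptors. Such pairs sit on direct repeats of a short hexamer, exchange corepressors for coactivators when ligand binds, and switch on target genes, among them RARB itself. The ATRA-degrading enzyme CYP26A1 and the retinal reductase DHRS3 are targets that limit the signal. In t(4;14) myeloma the translocation places NSD2, a histone methyltransferase, and FGFR3, a growth factor receptor, under immunoglobulin control, while IRF4, PRDM1 and XBP1 hold the plasma cell state.

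The promoters that carry the question are shown first, because RARB and CYP26A1 hold the textbook response elements and others lie under peaks of both lists. Sequences are RefSeq promoters of GRCh38.p14, from 250 bases before to 50 bases after a start, written 5′ to 3′ on the strand of the gene. In the first 4, capitals mark a direct repeat of 2 hexamers with NNNNN between them, searched on both strands. Any pair of the following hexamers was taken: AGGTCA, which is the textbook form; AGTTCA, which the repeats of RARB, CYP26A1 and PHF8 hold; GGGTCA, which stands in that of ATXN1L; and GGTTCA, the first in that of RARB. In the last 2, capitals mark the 21 bases centred on the DMSO summit. AIMP1 had the highest ATRA-to-DMSO ratio at a start, and PCSK4 the strongest start peak of DMSO that the ATRA list lacks. The latter peak also lies within 1000 bp of an end of REEP6, a gene named for this place alone.
RARB, chr3:25428013-25428312, plus strand: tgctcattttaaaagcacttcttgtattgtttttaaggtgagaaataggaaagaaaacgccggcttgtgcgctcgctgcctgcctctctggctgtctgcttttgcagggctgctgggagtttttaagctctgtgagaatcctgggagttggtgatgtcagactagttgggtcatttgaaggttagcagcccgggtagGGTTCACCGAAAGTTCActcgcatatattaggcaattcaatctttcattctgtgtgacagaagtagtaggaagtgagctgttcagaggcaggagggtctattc
CYP26A1, chr10:93073643-93073942, plus strand: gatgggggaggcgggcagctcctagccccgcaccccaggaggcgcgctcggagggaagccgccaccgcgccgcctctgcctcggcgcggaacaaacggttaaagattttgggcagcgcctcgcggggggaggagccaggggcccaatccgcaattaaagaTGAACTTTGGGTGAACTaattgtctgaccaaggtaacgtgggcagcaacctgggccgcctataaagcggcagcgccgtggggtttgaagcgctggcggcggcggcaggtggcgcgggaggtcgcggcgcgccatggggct
PHF8, chrX:54045087-54045386, minus strand: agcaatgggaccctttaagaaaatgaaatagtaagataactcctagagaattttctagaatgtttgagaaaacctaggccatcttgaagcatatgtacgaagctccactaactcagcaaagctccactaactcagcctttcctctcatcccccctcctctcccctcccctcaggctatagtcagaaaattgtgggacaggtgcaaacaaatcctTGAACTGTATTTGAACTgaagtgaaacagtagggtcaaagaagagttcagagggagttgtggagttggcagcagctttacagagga
ATXN1L, chr16:71845726-71846025, plus strand: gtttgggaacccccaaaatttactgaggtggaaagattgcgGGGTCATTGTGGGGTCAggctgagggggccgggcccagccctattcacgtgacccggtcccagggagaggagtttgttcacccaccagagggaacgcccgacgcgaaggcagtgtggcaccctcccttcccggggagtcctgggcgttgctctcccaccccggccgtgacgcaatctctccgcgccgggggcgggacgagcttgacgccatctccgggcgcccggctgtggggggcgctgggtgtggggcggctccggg
AIMP1, chr4:106316300-106316599, plus strand: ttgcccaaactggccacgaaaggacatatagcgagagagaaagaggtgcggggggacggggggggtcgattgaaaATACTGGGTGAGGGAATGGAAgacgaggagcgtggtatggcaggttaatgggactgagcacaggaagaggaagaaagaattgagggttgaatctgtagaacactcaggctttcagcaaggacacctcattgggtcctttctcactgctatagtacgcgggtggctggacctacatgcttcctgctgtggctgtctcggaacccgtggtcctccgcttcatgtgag
PCSK4, chr19:1490301-1490600, minus strand: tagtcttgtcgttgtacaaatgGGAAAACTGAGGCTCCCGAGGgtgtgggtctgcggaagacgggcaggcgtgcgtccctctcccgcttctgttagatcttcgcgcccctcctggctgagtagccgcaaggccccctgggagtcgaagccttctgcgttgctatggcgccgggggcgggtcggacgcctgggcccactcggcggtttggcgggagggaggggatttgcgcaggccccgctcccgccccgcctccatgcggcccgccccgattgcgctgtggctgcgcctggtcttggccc

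The repeat was found in 31 of 34961 promoters (0.0887%), and RARB and CYP26A1 were among them. A DMSO peak lay over 6 of the 31 and an ATRA peak over 6 as well, while over all 34961 promoters a DMSO peak lay over 11776 and an ATRA peak over 7957. The RARB element had no peak over its promoter in any of the 4 lists. Its nearest DMSO peak lay 22365 bp away (245 reads at the summit) and its nearest ATRA peak 22624 bp away (36 reads), at the same site. The CYP26A1 promoter had no peak over it in any list either. There the nearest DMSO peak was 4453 bp away with 45 reads and the nearest ATRA peak 40638 bp away with 29. Of the 6, PHF8, a histone demethylase gene, and ATXN1L, a repressor gene, were the ones with a summit that could be scaled, which is how they were chosen after their values were seen, and had a peak over the promoter in all 4 lists. At PHF8 the DMSO summit had 290 reads and the ATRA summit 38, where 43.5 would be seen with no change, as scaled below, and the ratio was 0.874 (0.606 to 1.23). At ATXN1L the summits had 150 and 22 reads, where 22.5 would be seen, a ratio of 0.978 (0.595 to 1.54). A match to these letters is not a measured binding site.

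Depth decides what can be read here. Reads at a summit, recovered from the fold enrichment and p of each peak, had a median of 78 in DMSO and 23 in the ATRA-labelled library, with 10th percentiles of 28 and 11. Total read numbers were not stated, and the lowest backgrounds put the ATRA depth at 0.133 of DMSO. At the 5133 strongest summits that lay within 50 bp in both lists, the ATRA library held 0.150 reads per DMSO read (0.149 to 0.151), and this scale sets the reads to be seen with no change. A DMSO peak was called readable when these reads had a Poisson chance of at least 0.99 of passing the lowest p of the ATRA list. Readable peaks numbered 19923, so most DMSO peaks were too weak to show a loss. The lists also differ from the others in their backgrounds. At 643 summits on the same base, the ATRA background was 0.134 or 0.133 times the DMSO background, to within 0.1%, in 560 cases (87.1%). For the other 5 pairs of lists the matching share for their 2 commonest ratios was 5.40% to 7.54%. The labels give each treatment an input of its own, and the files do not name the input behind each list. Whether the 2 lists share an input, or the ChIP library labelled ATRA is itself related to the DMSO one, cannot be told from the files. The similar peak heights and the narrow spread given next therefore cannot be told apart from such a relation, and are not to be read as a response to ATRA.

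After scaling, ATRA and DMSO peaks whose summits coincided had nearly the same heights relative to each other. Over 12581 shared summits with at least 20 reads to be seen, the ratio of ATRA reads to scaled DMSO reads had a median of 0.99. DMSO peaks with that many reads to be seen numbered 16898, and only those with an ATRA summit within 50 bp entered. Uncalled peaks and peaks with a moved summit are left out, so the shares below describe the 12581 coinciding summits only. The scale was itself the median ratio at the strongest of these summits, so a median near 1 is set by it. A change common to all peaks would not show. The 5th and 95th percentiles of the ratio were 0.676 and 1.36. Within 1.5-fold of 1 lay 93.8% of them. A ratio of at least 2 was seen at 5 summits (0.0397%) and of at most 0.5 at 56 (0.445%). With a scale taken from the backgrounds (0.133) these counts were 18 and 16, so the excess of low ratios rests on the scale. The median ratio was then 1.12. The exact 95% interval of the ratio lay above 1 at 836 summits (6.64%) and below 1 at 774 (6.15%).

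**Figure D1:**
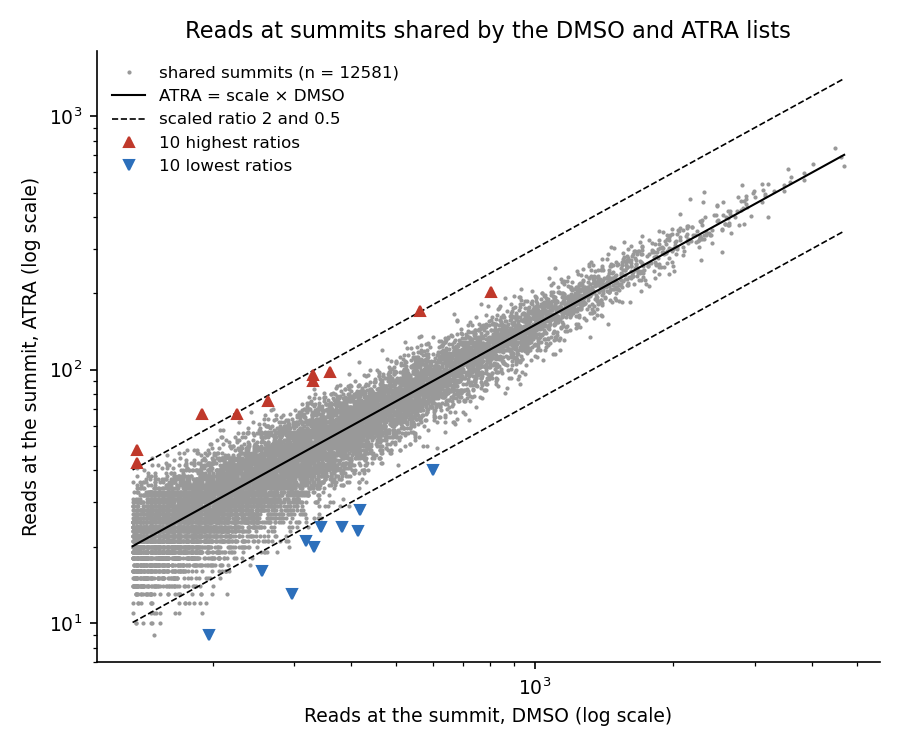
Reads at the 12581 shared summits with DMSO (x axis, log scale) and ATRA (y axis, log scale). Each grey point is 1 summit, the solid line is the scale of 0.150, the dashed lines are scaled ratios of 2 and 0.5, and triangles mark the 10 highest and 10 lowest ratios ranked by the end of the interval nearest 1.

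The spread of these ratios was wider than counting error and far narrower than in the other 2 comparisons with the same DMSO list. At the strongest summits the SD of the log2 ratio was 0.25 for ATRA, against 0.17 from counting, which leaves 0.18 beyond it. For POM the part beyond counting was 0.93 over 4381 summits, and for ATRA with POM it was 0.88 over 4445. Only strong DMSO summits with a summit of the other list within 50 bp entered. These were 80.4% of the strongest for ATRA, 68.6% for POM and 69.6% for the combination, so the sets differ. Expressed at the read numbers of the ATRA library, the variance was 2.20 times that of counting for ATRA, 32.3 times for POM and 29.1 times for the combination. All 3 comparisons share the DMSO list. No pair of DMSO libraries shows what spread 2 cultures without a drug would give.

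**Figure D2:**
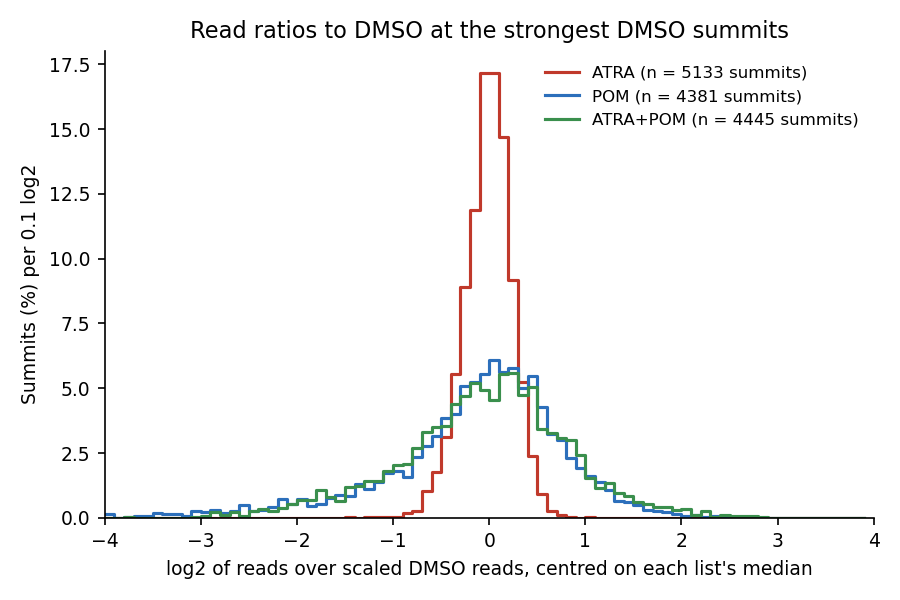
Share of the strongest DMSO summits (y axis, % per 0.1 log2) by the log2 ratio of reads to scaled DMSO reads (x axis), centred on the median of each list. Only summits with a summit of the other list within 50 bp are counted. The ATRA line is narrow (SD 0.25) and the POM and ATRA+POM lines are broad, with 0.93 and 0.88 beyond counting error.

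Retinoid genes were read next. Of 41 receptors, enzymes, carriers and classic targets matched to the gene table, 20 had a DMSO peak at the locus and 14 an ATRA peak. A locus is the gene with 5000 bp on both sides. Over all 549 listed genes 414 had a DMSO and 367 an ATRA peak at the locus. The loci of the 41 genes held 89 DMSO peaks, of which 38 overlapped an ATRA peak, where DMSO peaks of the same strength elsewhere give 36.1. All 21 readable ones were called with ATRA, while over all genes and the regions between them 610 of 19923 readable peaks (3.06%) were not, so the count is near the general share. Pooled over the 13 summits that could be scaled, 707 ATRA reads stood against 741 to be seen, a ratio of 0.955 (0.881 to 1.03).

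RARB, the receptor gene of the title (chromosome 3, 24829321 to 25597932), had 18 DMSO and 13 ATRA peaks at its locus, and 7 of the 18 were overlapped where strength alone gives 6.08. At chr3:24986038-24987990, inside the gene, the summit had 290 reads with DMSO and 41 with ATRA, against 43.5 to be seen. The peak at chr3:25404803-25405648 had 245 reads with DMSO and 36 with ATRA, against 36.75. The ratios were 0.94 (0.66 to 1.31) and 0.98 (0.67 to 1.39). In the POM and combination lists the latter peak had 1175 and 765 reads. At chr3:25460235-25463138 the DMSO peak of 291 reads covered 4 ATRA peaks of 30, 34, 26 and 26 reads, against 43.65. All 11 DMSO peaks of RARB without an ATRA peak would give at most 9 reads at this depth. Their chance of a call was at most 79.0%.

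One ATRA peak of RARB had no DMSO counterpart. It lay inside the gene near its upper end, at chr3:25596450-25596659, 1351 bp from an end of TOP2B, a DNA topoisomerase gene, and had 15 reads over a background of 1.45. At that background a DMSO call needs 27 reads under the Poisson model. If DMSO held fewer, the ratio is above 3.70, or above 2.07 at the lower end of the counting interval. Whether DMSO held fewer was not tested, and the peak was selected for its missing DMSO call. The nearest DMSO peak was 1952 bp away. Peaks at this place had 29 reads with POM and 31 with the combination, so the call was missing in the DMSO list alone.

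**Figure D3:**
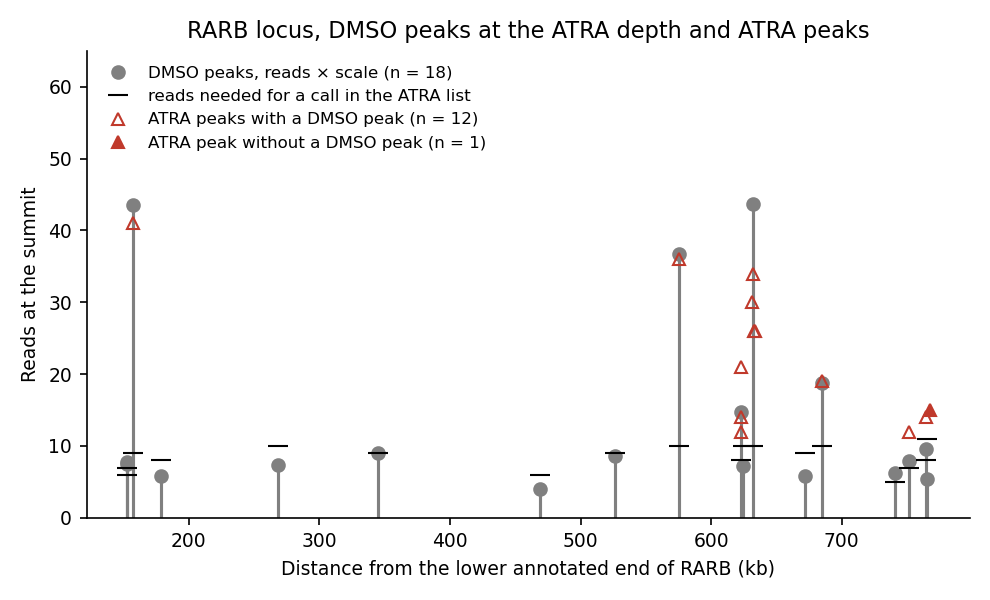
Summit reads (y axis) along the RARB locus by distance from its lower annotated end in kb (x axis). Grey points are the 18 DMSO peaks multiplied by the scale, dashes the reads needed for an ATRA call, open triangles the 12 ATRA peaks with a DMSO peak and the filled triangle the 1 without, and the ATRA peaks at the 2 tallest scalable summits have 41 and 36 reads.

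CYP26A1, the enzyme that clears ATRA, could not be read. Its 1 DMSO peak (chr10:93078395-93078669) had 45 reads, which gives 6.75 at the ATRA depth, where 9 are needed. If a missing call means fewer than 9 ATRA reads, the ratio was below 1.33, or 2.54 at the upper end of the counting interval. Over this peak the combination list had a peak of 396 reads. DHRS3 had no peak with DMSO or ATRA, and 4 with POM and 5 with the combination. CYP26B1, a second ATRA hydroxylase, had none with DMSO, ATRA or POM and 2 with the combination. Among other classic targets, the homeobox genes MEIS1 and MEIS2 had pooled ratios of 0.943 (0.740 to 1.19) and 0.922 (0.628 to 1.32). CYP26B1, MEIS1 and MEIS2 were chosen after their values were seen. NRIP1, a corepressor induced by retinoids, had 29 ATRA reads against 23.4, a ratio of 1.24 (0.80 to 1.85).

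RARA (chromosome 17, 40309180 to 40357643) had 13 DMSO and 8 ATRA peaks. Its strongest summit, 516 bp from a start, had 530 reads with DMSO and 77 with ATRA, against 79.5 to be seen. RARG had 7 and 5 peaks. Its strongest DMSO peak had 442 reads and the highest ATRA summit inside it 71, against 66.3, while its 1 scalable summit had 25 ATRA reads against 37.35, a ratio of 0.67 (0.42 to 1.01). RXRA, the common partner of these receptors, had 171 reads with DMSO and up to 22 with ATRA, against 25.65. No receptor locus with a scalable summit had an interval that left 1. Among the enzymes, RDH11, a retinal reductase, had 48 ATRA reads against 33.6, with the ratio at 1.43 (1.02 to 1.96). RDH5, a retinol dehydrogenase, had 30 against 46.05 over 2 summits, a ratio of 0.65 (0.43 to 0.95). RDH10, which makes retinal from retinol, had 106 against 128, or 0.828 (0.671 to 1.02). RDH5 and RDH10 were chosen after their values were seen. Loci that lost all their calls were weak: CYP26C1, LRAT, FABP5, PLAAT4 and RXRG had DMSO peaks of at most 68 reads and no ATRA peak, and at most 10.2 reads were to be seen. These 5 were also chosen in this way.

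Cofactors that the receptors recruit had peaks at nearly every locus. Of 18 nuclear receptor coregulators all had a DMSO locus peak and 17 an ATRA peak, where 414 and 367 of all 549 listed genes did. Of their 103 DMSO peaks 65 were overlapped by an ATRA peak, where strength gives 54.6. Of 42 readable ones 41 were called, the exception, named after it was seen, being a peak of TBL1XR1, a part of the corepressor complex, which is near the share over all readable peaks. Pooled over 24 summits the ratio was 1.06 (1.00 to 1.12). NCOR1, the corepressor itself, had 118 ATRA reads against 84.9 over 2 summits, a ratio of 1.39 (1.13 to 1.70). TRIM24, a coregulator with a bromodomain, had a gene-end ratio of 1.31 (1.02 to 1.67). EP300, an acetyltransferase, had 86 reads against 89.25 (0.964, 0.759 to 1.21), and NCOA2, a coactivator, 205 against 198 (1.04, 0.889 to 1.2). KAT2B, another acetyltransferase, kept all 10 of its DMSO peaks, where strength gives 6.77. NCOR1, EP300, NCOA2 and KAT2B were chosen after their values were seen. Across the loci of all 7264 genes with a scalable summit the interval lay above 1 for 439 (6.04%) and below 1 for 555 (7.64%).

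Plasma cell genes were read as a check of the cell type. All 10 plasma cell markers had locus peaks in both lists, where 414 of all 549 listed genes had a DMSO peak and 367 an ATRA peak. All 20 readable DMSO peaks at the 10 markers were called with ATRA, near the share over all readable peaks. Of 27 markers of other cell types 22 had no DMSO peak at the locus, against 135 of the 549. CD3E (T cells), CD14 (monocytes), MS4A1 (B cells) and EPCAM (epithelium) were among the 22, picked as examples with their values in view. The exceptions were CD2, HBB, PECAM1, VIM and GFAP, each of which had peaks in both lists. Of these, 2 were chosen after their values were seen: HBB, a globin gene, had 1156 reads with DMSO and up to 174 with ATRA, against 173.4, and PECAM1, an endothelial gene that plasma cells also express, had 580 and 67, against 87, or 0.770 (0.589 to 0.993). The strongest TNFRSF17 peak, at the gene of the receptor BCMA, had 1239 reads with DMSO and up to 222 with ATRA, against 185.85. SDC1, the gene of the surface proteoglycan syndecan-1, had 222 ATRA reads against 213 over 3 summits (1.04, 0.901 to 1.2), and CD38, a surface enzyme, had 314 and up to 36, against 47.1.

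Of the factors that hold the plasma cell state, PRDM1 and IRF4 had pooled ratios with a counting interval above 1. PRDM1 (chromosome 6, 105992690 to 106109938) had 897 and 415 reads with DMSO at its 2 scalable summits. The ATRA summits had 175 and 67, against 134.55 and 62.25, and the pooled ratio was 1.23 (1.07 to 1.41). IRF4 (chromosome 6, 391752 to 411443) had 247 and 141 reads with DMSO and 51 and 28 with ATRA, against 37.05 and 21.15. The pooled ratio of these 2 was 1.36 (1.05 to 1.73). The strongest peak of IRF4 could not be scaled by its summit and had 476 reads with DMSO and up to 77 with ATRA, against 71.4. XBP1 had 819 and 141 reads at its strongest summit, against 122.85, and a pooled ratio of 1.06 (0.921 to 1.22). Over 12 scalable summits in 7 of the 10 markers 1498 ATRA reads stood against 1353 to be seen, a ratio of 1.11 (1.05 to 1.17). That interval holds counting error and not the further spread given above for the whole list. JCHAIN, the joining chain of antibodies, had 422 against 394 (1.07, 0.965 to 1.19), and POU2AF1, a B-lineage coactivator, 253 against 238 (1.06, 0.926 to 1.21), both chosen after their values were seen. Among the 11 of 20 always-named genes with a scalable summit, the interval lay above 1 for PRDM1 and IRF4 and below 1 for none. Over the loci of all 7264 genes with a scalable summit these shares were 6.04% and 7.64%, and 11 genes are too few to set against them. The intervals of single genes also hold counting error only.

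Targets of the drug partner and the translocated genes gave the following values. IKZF1, an Ikaros factor, had 1110 reads with DMSO and 164 with ATRA, against 166.5, and IKZF3 had 1050 and 169, against 157.5. CRBN, the cereblon gene on which pomalidomide acts, had 2 DMSO peaks and no ATRA peak. Its start peak had 46 reads, which gives 6.90 with ATRA, and DMSO peaks of that strength were called in 37.4% of cases. All 6 readable peaks of NSD2 were called with ATRA, near the general share, since 3.06% of all readable peaks were not called. The strongest had 224 reads with DMSO and up to 36 with ATRA, against 33.6. FGFR3 had 59 reads with DMSO and up to 9 with ATRA, against 8.85. CCND2, a cyclin D gene, had 641 and 89 reads, against 96.15, and a pooled ratio of 0.9 (0.761 to 1.06).

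Peaks present with ATRA and absent with DMSO were few and weak. They numbered 120 (0.327%), with 5 to 18 reads at the summit, a median of 10 and no fold enrichment above 9.05. For 89 of them neither the POM nor the combination list had a peak, and 52 had no DMSO peak within 500 bp. The matching share over all ATRA peaks is not given beside the 89, so that count is not read as a trait of these peaks. If the DMSO list holds fewer reads than it needs for a call, the scaled ratio is above 3.86 in the median peak, with a range of 2.22 to 6.15. That range describes peaks selected for a missing DMSO call. The strongest lay inside ENSA, a phosphatase inhibitor gene, beside the start of IQUB and inside RUFY3 (18, 18 and 17 reads). A DMSO peak lay 250, 434 and 350 bp from these, so they border places that DMSO also called. Next came a peak 207437 bp from POT1, a telomere protein gene (17), one inside FGF13, a growth factor gene (16), one far from GABRG1, a subunit gene of the GABA receptor (15), and one 52547 bp from THSD7A (15). The RARB peak above, one near the histone gene H2BC13 (15) and one inside PSD3 (14) complete the 10. The peaks named for GABRG1, H2BC13 and PSD3 also had a DMSO peak close by, at 410, 243 and 320 bp. For those named for POT1, FGF13 and THSD7A the nearest lay 77034, 93319 and 17629 bp away.

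At genes the number of gains rested on the counting rule. Peak midpoints within 1000 bp of a gene end gave 350 genes with ATRA alone (4.58%). ATRA peaks were narrower than DMSO peaks, with median widths of 385 and 498 bp. When any base of a peak counted, 7 remained: LRRC47, LRRC27, RILPL2, GCNT3, CEMP1, PCDHB16 and PCDHB9, all named after their values were seen. GCNT3, which encodes a mucin-branching enzyme, had 13 ATRA reads where a DMSO call needs 22. Peaks there were also called with POM and with the combination, and the same holds for PCDHB9, a protocadherin gene with 10 reads.

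Of all DMSO peaks 24820 (48.7%) had no ATRA overlap. The share called with ATRA climbed from 1.55% where the Poisson chance of a call was under 0.1 to 63.2% between 0.9 and 0.99 and 99.1% above 0.999. In every range it was lower than the mean chance, so the Poisson model gave more calls than the list holds. Among the 19923 readable peaks 610 (3.06%) had no ATRA overlap, and of these 456 had a chance between 0.99 and 0.999 and 154 a higher one. At the same readable peaks POM had no overlap for 1268 (6.36%) and the combination for 2431 (12.2%). Width went with the loss: none of 1852 readable peaks of 3 kb or more lacked an ATRA peak, against 13.2% of those under 500 bp. A wide peak has more bases in which an overlap of 1 bp can fall. Lost readable peaks were also weaker, with a median of 127 reads against 236 over all readable peaks. The parts of width, strength and the overlap rule were not tested. For 531 of the 610 a POM peak overlapped, for 429 a combination peak and for 63 neither.

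**Figure D4:**
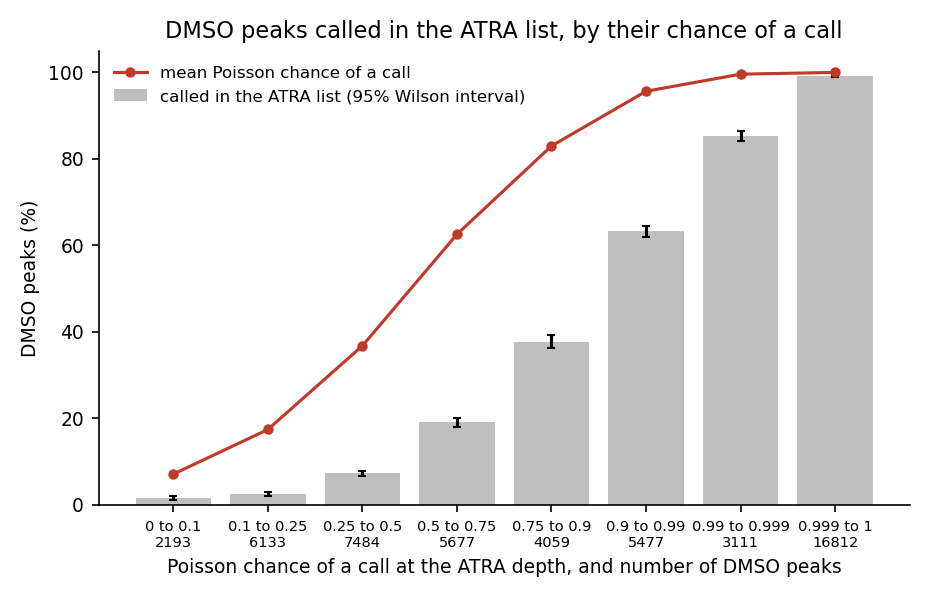
Share of DMSO peaks called in the ATRA list (bars, %, with 95% Wilson intervals) by the Poisson chance of a call at the ATRA depth (x axis, with the number of DMSO peaks below). The line is the mean chance in each range, and the bars reach 63.2%, 85.3% and 99.1% in the last 3 ranges.

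The readable losses with the most reads were scattered. The bounds on their ratios hold if a missing call means fewer reads than a call needs. The list held fewer calls than that Poisson rule gave, and whether it holds at these places was not tested. Inside BICC1, an RNA-binding protein gene, chr10:58757383-58757900 had 326 reads with DMSO. That gives 48.9 at the ATRA depth, where 9 make a call, so on this reading the ratio was below 0.18. That place had 1817 reads with POM and 1066 with the combination. Inside POT1, 318 DMSO reads (47.7) put the ratio below 0.19. A peak 8846 bp from SLFN11, a gene that blocks stalled replication forks, had 265 reads (39.75, below 0.25) and one at the PCSK4 start shown above 257 (38.55, below 0.36). The PCSK4 and SLFN11 peaks were called with POM (142 and 238 reads) and not with the combination. The rest of the 10 lay in or near CCDC190, NET1, MPZL1, PARD3, LOC107984449 and TNFSF4, with 227 to 250 DMSO reads and ratios below 0.28 to 0.47.

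Readable gene-end peaks were lost from the ATRA list for 156 of 6190 genes (2.52%), and for 136 (2.2%) no ATRA peak had its midpoint at the gene end. BCL2L11, which encodes the pro-apoptotic protein BIM, was in both counts. Its start peak (chr2:111120250-111120661) had 91 reads with DMSO, or 13.65 at the ATRA depth, where 5 make a call. If a missing call means fewer than 5 ATRA reads, the ratio was below 0.37, or 0.78 at the upper end of the counting interval. The bounds for the genes that follow take the same reading, which was not tested. Of DMSO peaks as strong as the BCL2L11 start peak, 93.7% were called with ATRA. None of the 5 DMSO peaks of BCL2L11 was overlapped by an ATRA peak, where strength gives 2.05, and the start peak had 54 reads with POM and 33 with the combination. FOSB, an AP-1 factor, had 186 reads (27.9, below 0.32), RPS2, a ribosomal protein gene, 138 (20.7, below 0.39), ATF4, the factor of the integrated stress response, 123 (18.45, below 0.49), and TNFRSF10A, a TRAIL receptor, 190 (28.5, below 0.25). Peaks of these strengths were called in 98.9%, 94.5%, 83.0% and 99.5% of cases. At ATF4 and TNFRSF10A another ATRA peak had its midpoint at the gene end. The FOSB place had a peak with POM (44 reads) and none with the combination.

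Gene lists stayed close to the value of all genes. Of 23 lists, 20 had members with a scalable gene-end summit, and 18 of the 20 had a median ratio within 1.2-fold of 1. The median over 3950 genes was 0.945, with the interval above 1 for 167 (4.23%) and below 1 for 341 (8.63%). The 2 lists outside that range were the translocation and cyclin D genes (0.797 over 2 genes) and the AP-1, BATF and MAF factors (0.823 over 5). Cell cycle and replication genes had a median of 0.95 over 21 genes, with 34 readable and none lost, near the 2.52% lost over all genes. Proteasome subunits had 0.955 over 14, ribosomal proteins 0.964 over 26, interferon-stimulated genes 0.871 over 5 and stress response genes 0.920 over 13. Readable members were lost in 5 lists, 1 in each, which are the genes named above.

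**Figure D5:**
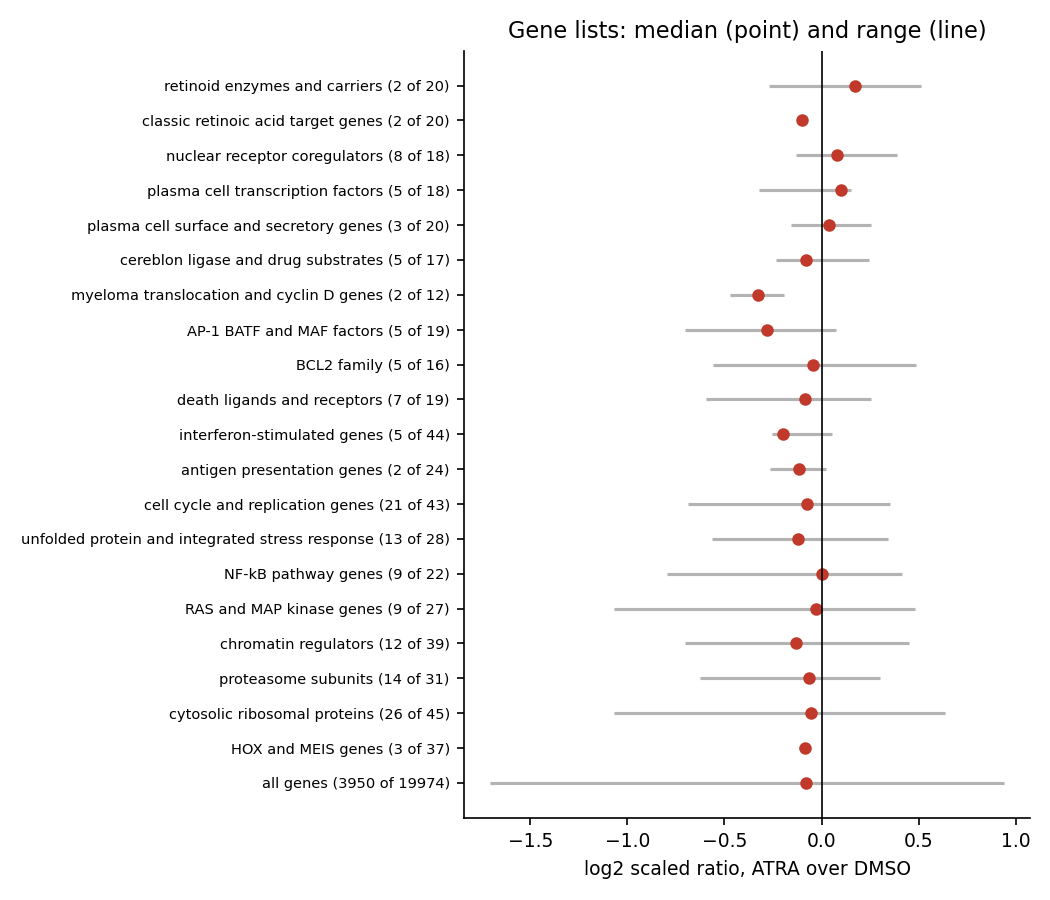
Scaled ratio of ATRA to DMSO reads (x axis, log2) at the strongest shared gene-end summit for each gene list. Points are medians and lines the range over members, with the number of members that could be scaled of all members in brackets, and the all-gene median corresponds to a ratio of 0.945.

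Single members departed from 1 in both directions. ETV5, an ETS factor downstream of MAP kinase, had 164 ATRA reads against 117.6, a ratio of 1.39 (1.17 to 1.65). RPS16, a ribosomal protein gene, had 41 against 26.4, or 1.55 (1.08 to 2.19). Lower were EIF2AK3, the kinase PERK, at 0.712 (0.531 to 0.940), PSMC6, a proteasome ATPase, at 0.647 (0.462 to 0.886), and NFKB2, an NF-kB subunit, at 0.576 (0.340 to 0.921). SEC61B, a part of the translocation channel, had 32 reads against 47.25, and RPL28, a ribosomal protein gene, 238 against 292.8. PTPN11, a phosphatase of the RAS pathway, and RPL6 share 1 peak with 11 reads against 23.1. At EIF2AK3 the other summits were higher, and pooled over 7 the locus had 459 reads against 415, a ratio of 1.11 (1.00 to 1.22). Over the 267 list members with a scalable locus the interval lay above 1 for 22 (8.24%) and below 1 for 17 (6.37%), near the shares of all genes. The next 6 genes were chosen after their values were seen. IRF1, an interferon factor, had 19 ATRA reads against 39.3 (0.483, 0.286 to 0.770), JUN, an AP-1 factor, 39 against 59.55 (0.655, 0.459 to 0.911) and the deacetylase gene HDAC4 196 against 242 (0.810, 0.695 to 0.940). CREB3L2, a stress response factor, had 560 against 470 (1.19, 1.09 to 1.30), ERN1, the stress sensor IRE1, 456 against 397 (1.15, 1.04 to 1.27) and CHD7, a chromatin remodeller, 284 against 226 (1.26, 1.1 to 1.43).

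The shared summits farthest from 1 were ranked by the end of the interval nearest 1, not by the ratio itself. The highest ratio was inside TASP1, a protease gene, at chr20:13395846-13398063, where 190 DMSO reads give 28.5 and ATRA had 67, or 2.35 (1.75 to 3.12). A narrow summit inside CSMD1 had 170 reads against 84.45 (2.01, 1.69 to 2.39). At the shared start of TBCK and AIMP1, shown above, ATRA had 95 against 49.5, a ratio of 1.92 (1.51 to 2.42). Others above 1 lay near SOX3 (2.34), SPAM1 (2.09), ANKRD30BL (1.98), LOC124900252 (1.89), GALNT18 (1.82) and ANKRD7 (1.82) and inside FSTL3 (1.68). Those near SPAM1 and ANKRD7 had no peak with POM or the combination.

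Of the 10 lowest by that ranking 3 lay side by side on chromosome 16, far from any gene of the table. At chr16:35685782-35688979, chr16:35689052-35690966 and chr16:35691594-35695365 DMSO had 602, 297 and 413 reads. ATRA had 40, 13 and 23, against 90.3, 44.55 and 61.95, with ratios of 0.44, 0.29 and 0.37. One more DMSO peak beside them, with 211 reads, had no ATRA peak although 31.65 reads were to be seen. POM and the combination had up to 1084 and 1508 reads over this run. The others lay inside KAT8, a histone acetyltransferase gene (9 against 29.4, 0.31, with another ATRA summit of 24 inside the same peak), near PLEKHG3 (0.40), inside APBA1 (0.42), PTPRJ, a phosphatase gene (0.45), SCFD2 (0.42) and SBF2 (0.47), and at the start of PGAP3 (21 against 47.85, 0.44). Lower ratios with wider intervals are not among these 10. One summit with a ratio of 0.47, chosen after its values were seen, lay 6237 bp from FABP5, which encodes a carrier of fatty acids and ATRA, with 169 DMSO reads and 12 with ATRA.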

How the data were processed

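ChIP-seq peak lists of 4 treatments were used, 1 library each, grouped by the treatment in the labels. The submitters' processing notes name the build hg38. Aligner and peak caller were not given in the sources used here. The authors deposited, for each peak, a score, a fold enrichment over background, the −log10 of p and q, and the summit position. Each list belongs to 1 library. Peaks on other sequences (151 DMSO and 71 ATRA) were left out.

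Fold and p were solved for the summit reads n and background b under fold = (n + 1)/(b + 1) and a Poisson p of more than n reads. Reads came out whole, to within 0.02% of the −log10 p, for 100% of DMSO and 99.997% of ATRA peaks. This is an inference from the values. The scale was the median read ratio over the top 12.5% of DMSO peaks. Ratios carry exact Clopper-Pearson 95% intervals and shares of calls Wilson intervals. PCR duplicates are unknown, so intervals cover counting error only. The number of calls to be seen at a locus is the sum, over its DMSO peaks, of the share called among DMSO peaks of like strength in 50 bins. Gene ends and promoters come from RefSeq tables of GRCh38.p14, with 19974 protein-coding genes. Of 551 listed symbols 549 matched.

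Members, gene lists and rules were chosen with earlier results of these data known. Named were 20 genes always and the 10 strongest unshared peaks of each list. The 10 highest and 10 lowest ratios and up to 4 members per list were also named. Cell type markers were named from their lists, and any other gene is marked as picked with its values in view. No test of a treatment was possible. Steps were tested on simulated data. Python 3.11.15, numpy 2.4.6, pandas 2.3.3, scipy 1.17.1 and matplotlib 3.10.9 were used.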

Additional observations from a re-analysis of the deposited data

How the results depend on the processing

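Depth limits losses to the strongest DMSO peaks, and no replicate limits every direction. Of the alternatives, ATRA peaks without a DMSO peak numbered 206 with an overlap of 50% of the peak, 52 when a peak within 500 bp counted, 656 with equal numbers of strongest peaks and 0 in the stronger 50% of the ATRA list. DMSO peaks without an ATRA peak numbered 11185 with equal numbers. The scale was 0.154 on the same base, 0.148 over the strongest 25% of DMSO peaks and 0.133 from backgrounds. Readable losses numbered 2623 at a chance of 0.9, 270 with the scale from backgrounds and 194 at a p 100 times smaller. Ratios of at least 2 numbered 0 on the same base, 1 with at least 50 reads to be seen and 18 with the scale from backgrounds, which sets the median ratio at 1.12, and ratios of at most 0.5 numbered 2, 7 and 16. Genes with a readable DMSO gene-end peak and none with ATRA numbered 388 at a chance of 0.9 and 86 when any base counted. Genes with ATRA alone numbered 49 within 3000 bp and 7 when any base counted. Within 3000 bp the AP-1 and stress response lists each had 0 lost members in place of 1. The cause of these shifts was not tested. The alternatives with any base, starts from the promoter table and the highest summit inside a peak were chosen after seeing the data. No paired analysis was possible because each treatment had 1 library.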

Other observations

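Peaks at gene starts and away from them differed slightly in their ratios, chromosome 8 left out because the promoter table has no start there. The median ratio was 0.952 over 3587 summits within 1 kb of a start, 1.02 over 4577 inside genes and 0.994 over 3886 between genes. Starts made up 29.8% of the scalable summits, 39.4% (36.0 to 43.0) of those with an interval below 1 and 17.7% (15.2 to 20.5) of those with one above 1. Broad peaks went the other way from narrow ones: the median was 1.03 in DMSO peaks of 3 kb or more and 0.976 in those under 500 bp. By chromosome it ran from 0.941 on 16 to 1.01 on 3. Base composition of the promoter showed little relation to the ratio. Across 3608 promoters with a scalable peak, Pearson's r of GC content with the log2 ratio was -0.0387 and Spearman's rho -0.0298, as a description across sites of the same 2 libraries.

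The ATRA peaks without a DMSO peak were also placed differently from the whole list. Of 116 outside chromosome 8, 13 (11.2%, 6.67 to 18.2) lay within 1 kb of a start and 60 (51.7%) inside a gene, against 29.6% and 40.8% of all ATRA peaks. Their median of 10 reads compares with 23 in the whole list, and how much the difference in strength has to do with the place was not tested.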
